A study of Mus musculus with 6 samples.

Results

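The Wnt and Fgf genes encode 2 of the large families of signalling proteins of vertebrates, and their chromatin was read here from gastrocnemius muscle, a calf muscle made mostly of fast fibres. Members were the protein-coding genes of RefSeq mm10 on chromosomes 1 to 19 with a symbol of Wnt or Fgf followed by a number, without receptors or binding proteins. There were 39 of 20661 protein-coding genes on these chromosomes, 19 Wnt genes and 20 Fgf genes. A gene's window was its body with 2 kb on either side, and each gene is described by the peaks in its window in 6 lists of 1 library each.

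Male C57BL/6 mice of 4 weeks were used. Conditional knockout mice (CKO) were Phf2 flox/flox;Acta1 Cre+ and control mice (Ctrl) were Phf2 flox/flox;Acta1 Cre-, so both carried floxed Phf2 and differed in Cre. The Acta1 promoter drives Cre in skeletal muscle fibres, so the other cells of a muscle are not targeted. PHF2 belongs to the JmjC family and has been reported to remove methyl groups from H3K9me2. CUT&RUN, the assay used, tethers a nuclease to an antibody and sequences the DNA it releases from around marked nucleosomes. The lists were H3K9me2 in CKO and in Ctrl, H3K4me3 in Ctrl (titled wild type, with the Ctrl genotype), 1 input in CKO and 2 inputs in Ctrl. With 1 H3K9me2 library per genotype there is no replicate check and no test between genotypes. Nothing in the labels says which libraries came from which animals.

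Wnt proteins are secreted lipid-modified ligands of Frizzled receptors and their LRP, ROR or RYK partners, and they act through beta-catenin or through branches independent of it. Most FGF proteins are secreted ligands of tyrosine kinase receptors. Fgf15, Fgf21 and Fgf23 act as hormones with klotho coreceptors, and Fgf11, Fgf12 and Fgf14 encode intracellular proteins that bind voltage-gated sodium channels and are not secreted. In muscle, both families are known for patterning in the embryo and for signals to satellite cells, the muscle stem cells. H3K4me3 marks active or poised promoters, and H3K9me2 is a repressive mark that often lies in broad domains.

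On chromosomes 1 to 19 the H3K4me3 list held 16066 peaks, the H3K9me2 lists 12508 in CKO and 3595 in Ctrl, and the input lists 10683 in CKO and 2999 and 1277 in Ctrl. Folds are the authors' own ratio of the peak summit to local background, with 1 added to each, which lowers the fold where the background is low. Summits of H3K9me2 peaks rested on medians of 9 fragments in CKO and 6 in Ctrl, against 53 for H3K4me3, so an H3K9me2 peak is a small count. These H3K9me2 peaks were narrow, with median widths of 389 bp in CKO and 387 bp in Ctrl, and broad domains were not measured. The lowest background of a list, a measure of depth, was 0.544 fragments in CKO and 0.391 in Ctrl for H3K9me2, 0.482 for H3K4me3, 0.371 for the CKO input and 0.294 and 0.292 for the Ctrl inputs. Of 12 muscle fibre markers, 8 had an H3K4me3 peak in the window (Tpm1 with the highest fold, 8.94), but Acta1, Ckm, Neb and Ttn had none. The share over all protein-coding genes was 65.5%, so the muscle fibre count does not set the tissue apart. Markers of satellite, endothelial, fibroadipogenic, Schwann and immune cells had a peak in the window at 2 of 4 each, adipocyte markers at 1 of 4 and neuronal markers at 0 of 4. Within 2 kb of a start, or of an end where no start was listed, 6 of 12 muscle fibre markers had one. By the same measure 61.6% of all protein-coding genes had one. Satellite, endothelial and Schwann markers had one there at 2 of 4 each, and fibroadipogenic markers at 1 of 4. Immune, adipocyte and neuronal markers had one there at 0 of 4. In bulk muscle a mark in few cells and a weak mark in many cannot be told apart, and a missing peak does not show that a gene is silent.

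The promoter sequences that the results turn on are given first, 300 bases each from RefSeq (GRCm38.p6, the assembly behind mm10), from 250 bases before the start to 50 after it, written 5′ to 3′ on the gene's strand with CpG dinucleotides in capitals. Fgf2 and Fgf5 had the highest H3K4me3 folds of the 39 genes. Fgf4 and Wnt1, with 28 and 26 CpGs against 24 in Fgf2 and 29 in Fgf5, had no H3K4me3 peak. Fgf12 and Fgf14 carried most of the H3K9me2 peaks, and 3 of the 4 listed starts of Fgf12 are shown because they differ in H3K4me3.
Fgf2 (chr3:37348403-37348702, + strand): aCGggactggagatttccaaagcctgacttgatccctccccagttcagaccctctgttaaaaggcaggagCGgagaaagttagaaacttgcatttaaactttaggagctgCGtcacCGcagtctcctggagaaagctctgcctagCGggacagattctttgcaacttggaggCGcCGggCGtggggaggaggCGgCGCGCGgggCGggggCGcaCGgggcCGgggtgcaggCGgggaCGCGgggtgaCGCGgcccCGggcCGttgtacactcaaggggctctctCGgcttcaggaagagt
Fgf5 (chr5:98253934-98254233, + strand): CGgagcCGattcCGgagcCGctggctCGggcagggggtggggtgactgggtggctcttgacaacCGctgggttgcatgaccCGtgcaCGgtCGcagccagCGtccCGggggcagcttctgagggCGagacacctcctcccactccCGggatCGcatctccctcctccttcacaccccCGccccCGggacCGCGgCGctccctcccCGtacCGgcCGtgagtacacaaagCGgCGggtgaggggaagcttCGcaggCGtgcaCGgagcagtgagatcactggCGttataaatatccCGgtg
Fgf4 (chr7:144861136-144861435, + strand): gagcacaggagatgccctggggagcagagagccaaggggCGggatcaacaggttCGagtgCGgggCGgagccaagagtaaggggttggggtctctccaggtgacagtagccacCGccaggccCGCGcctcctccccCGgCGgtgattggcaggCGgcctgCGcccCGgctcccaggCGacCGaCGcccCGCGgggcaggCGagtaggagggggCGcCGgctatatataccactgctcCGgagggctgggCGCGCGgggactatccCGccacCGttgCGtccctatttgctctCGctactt
Wnt1 (chr15:98789607-98789906, + strand): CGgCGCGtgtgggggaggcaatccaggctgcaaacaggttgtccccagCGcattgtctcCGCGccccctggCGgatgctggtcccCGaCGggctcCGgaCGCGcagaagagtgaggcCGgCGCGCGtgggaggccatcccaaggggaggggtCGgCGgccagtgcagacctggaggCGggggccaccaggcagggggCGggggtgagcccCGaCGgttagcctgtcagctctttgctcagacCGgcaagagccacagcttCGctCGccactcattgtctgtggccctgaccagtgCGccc
Fgf12 start 1 (chr16:28753194-28753493, - strand): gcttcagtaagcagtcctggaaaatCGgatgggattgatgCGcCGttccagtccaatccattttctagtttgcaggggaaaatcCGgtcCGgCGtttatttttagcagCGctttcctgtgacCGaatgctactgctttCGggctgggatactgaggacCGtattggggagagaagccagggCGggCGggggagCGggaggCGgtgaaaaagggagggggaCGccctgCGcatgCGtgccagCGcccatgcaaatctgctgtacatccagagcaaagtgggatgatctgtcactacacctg
Fgf12 start 2 (chr16:28564902-28565201, - strand): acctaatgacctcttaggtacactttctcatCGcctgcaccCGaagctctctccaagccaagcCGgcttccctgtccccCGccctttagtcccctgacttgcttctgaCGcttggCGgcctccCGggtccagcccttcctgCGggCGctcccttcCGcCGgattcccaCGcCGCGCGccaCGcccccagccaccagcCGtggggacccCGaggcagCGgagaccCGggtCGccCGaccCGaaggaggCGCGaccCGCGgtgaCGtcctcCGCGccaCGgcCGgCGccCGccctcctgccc
Fgf12 start 4 (chr16:28446026-28446325, - strand): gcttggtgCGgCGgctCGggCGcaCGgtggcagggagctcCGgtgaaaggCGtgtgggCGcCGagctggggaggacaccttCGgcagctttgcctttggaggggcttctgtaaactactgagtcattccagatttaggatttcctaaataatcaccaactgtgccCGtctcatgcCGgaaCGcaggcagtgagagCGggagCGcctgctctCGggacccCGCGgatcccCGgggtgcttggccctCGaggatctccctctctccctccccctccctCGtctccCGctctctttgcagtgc
Fgf14 (chr14:124192497-124192796, - strand): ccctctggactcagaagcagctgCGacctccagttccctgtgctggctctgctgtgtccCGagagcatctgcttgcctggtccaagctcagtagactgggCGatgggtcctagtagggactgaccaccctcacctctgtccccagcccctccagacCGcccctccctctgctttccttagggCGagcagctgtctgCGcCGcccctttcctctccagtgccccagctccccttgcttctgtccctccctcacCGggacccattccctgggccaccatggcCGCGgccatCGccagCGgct

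Across the 6 lists, most Wnt and Fgf genes had an H3K4me3 peak and few had an H3K9me2 peak. An H3K4me3 peak lay in the window of 28 of 39 genes (71.8%), 16 of 19 Wnt and 12 of 20 Fgf genes, where 65.5% of all protein-coding genes had one. An input-free H3K9me2 peak, meaning one that overlapped no peak of the 3 input lists, lay at 4 of 39 genes in CKO (10.3%, against 9.82% of all genes) and at 1 of 39 in Ctrl (2.56%, against 3.25%). With input peaks left in, H3K9me2 lay at 4 of 39 in CKO (against 16% of all genes) and at 2 of 39 in Ctrl, Fgf12 and Fgf14 (against 5.38%). These shares are near those of all genes or, for CKO with input peaks left in, below, and none is a result about the family as a whole. What follows concerns which members carried the marks, where and how strongly.

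**Figure D1:**
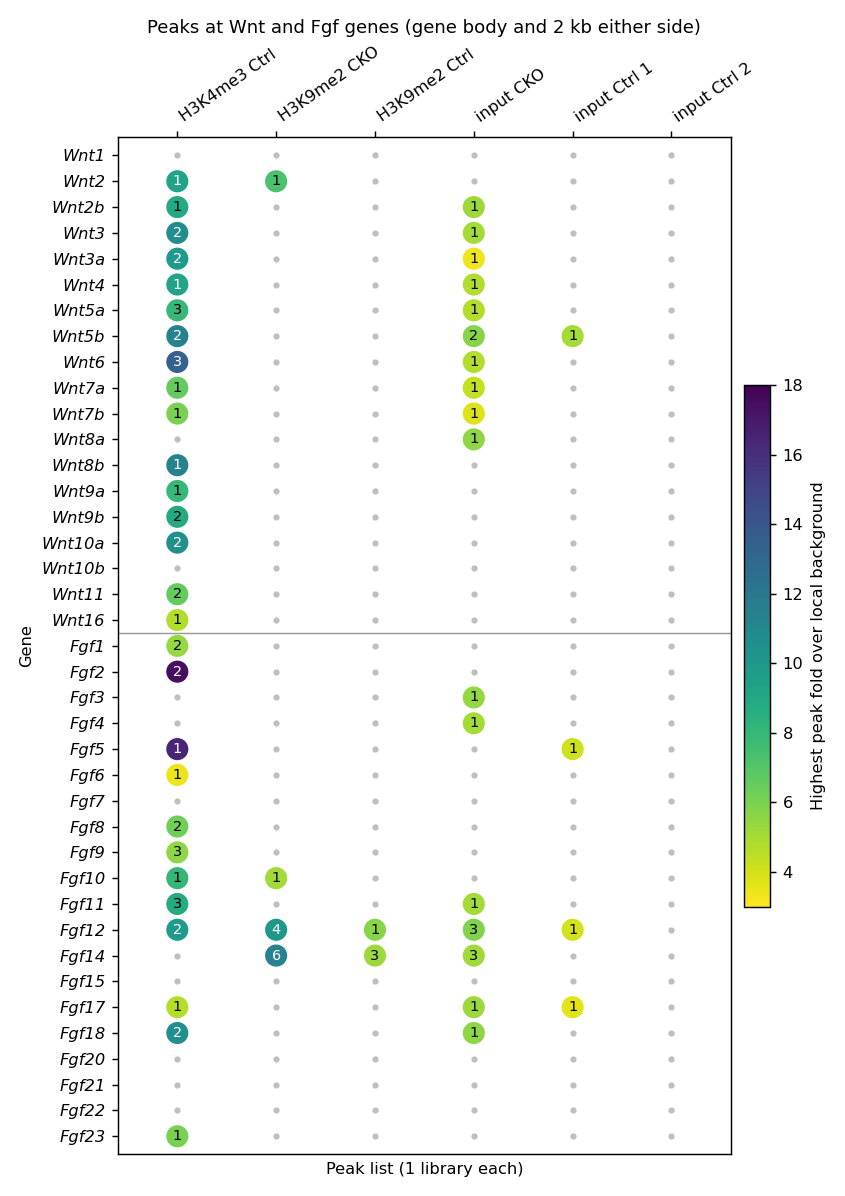
Number of peaks (digit) and the highest peak fold over local background (colour) for each of the 39 genes (rows) in each of the 6 lists (columns); a small grey dot means no peak in the gene body or 2 kb either side. H3K4me3 fills 28 rows, while H3K9me2 in CKO is seen at Wnt2, Fgf10, Fgf12 and Fgf14 and H3K9me2 in Ctrl at Fgf12 and Fgf14.

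A longer window can hold more peaks, so the counts are also given by gene length. Of the 18 members under 20 kb, 9 had H3K4me3 (50%, against 53.4% of all genes of that length). Of the 18 members of 20 to 100 kb, 17 had it (94.4%, against 77.7%), the exception being Fgf7. The 3 members over 100 kb were Wnt5b, Fgf12 and Fgf14, and Fgf14 had no H3K4me3 peak (2 of 3, against 85.1%). In all, 11 genes had none: Wnt1, Wnt8a, Wnt10b, Fgf3, Fgf4, Fgf7, Fgf14, Fgf15, Fgf20, Fgf21 and Fgf22. No peak of any of the 6 lists lay at Wnt1, Wnt10b, Fgf7, Fgf15, Fgf20, Fgf21 and Fgf22. These 7 include Fgf15 and Fgf21, whose hormones act on bile acid and energy metabolism, and Fgf7, a growth factor that stromal cells make for epithelia.

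The highest H3K4me3 folds were at Fgf2 and Fgf5. Fgf2 encodes a mitogen that lacks a signal peptide and promotes proliferation of myoblasts. Its start lay under a peak at chr3:37348457-37349155 with a fold of 17.5 and 82 summit fragments (exact 95% Poisson interval 65.2 to 102), a fold above the highest of 92.4% of genes with a peak. None of the 3 input lists and neither H3K9me2 list had a peak there. A second peak of Fgf2, 32.0 kb downstream of the start, was much smaller (fold 6.07, 8 fragments). Fgf5, which ends the growth phase of hair and is mutated in angora mice, had a peak at chr5:98253821-98254684 over its start with a fold of 16.4 and 73 fragments (57.2 to 91.8). A Ctrl input 1 peak of 6 fragments (fold 4.17) overlapped it, and the CKO input and Ctrl input 2 had none there. The promoters, printed above, held 24 CpGs in Fgf2 and 29 in Fgf5. Starts with an H3K4me3 peak had a median of 28 among members and 22 over all protein-coding genes.

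The other highest folds did not all lie at starts. Wnt6, expressed in the surface ectoderm of the embryo, had its highest peak 12.5 kb downstream of its start (fold 13.4, 38 fragments), near the far end of the gene. The peak over its start had a fold of 9.91 and 40 fragments, and one at the outer end of the gene model, 17.7 kb upstream, a fold of 5.26 and 8 fragments. Wnt8b, a gene of the embryonic forebrain, had a peak 18.3 kb downstream of its start (fold 11.4, 29 fragments) and none at the start. Likewise Fgf23, which encodes a bone hormone of phosphate balance, had its peak of fold 6.02 and 8 fragments 7.31 kb downstream and none at the start. Wnt3 and Wnt3a, both ligands of the beta-catenin branch, had folds of 10.7 at 36.1 kb and 9.81 at 26.6 kb into the gene, above those of 6.77 and 6.80 near their starts. Fgf18, a regulator of cartilage and bone growth, had 10.6 at 24.3 kb against 7.77 over its start. The Fgf18 peak at 24.3 kb overlapped a CKO input peak (fold 5.57, 9 fragments), and the peak over its start overlapped no input peak.

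Starts and strands were listed for 30 of the 39 genes. Wnt5a, Wnt7b, Wnt8a, Wnt10a, Fgf1, Fgf8, Fgf15, Fgf17 and Fgf20 were placed by either gene end. An H3K4me3 peak lay within 2 kb of a start, or of an end where no start was listed, at 26 of 39 genes (66.7%, against 61.6% of all genes). With a listed start, 20 of 30 genes had one, and 6 of the other 9 had one at an end. Within 1 kb the count was again 26 of 39 (against 60.2% of all genes), but a peak covered the start base itself at 13 of 39 (against 52.6%).

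**Figure D2:**
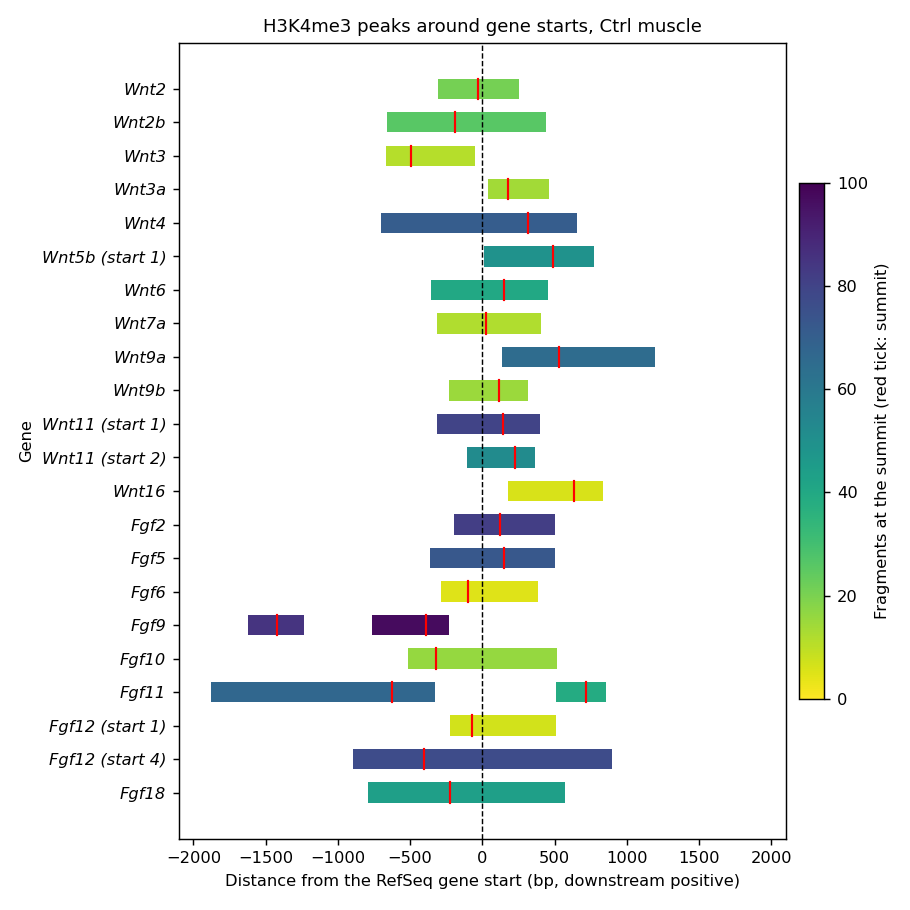
H3K4me3 peaks (bars) within 2 kb of listed starts of Wnt and Fgf genes in Ctrl muscle, by distance from the start in bp with downstream positive; colour gives fragments at the summit, whose position is the red tick. At Wnt9a and Wnt5b the peak begins just downstream of the start, at Fgf9 both peaks lie upstream of it, at Fgf11 the peaks flank it, and at Wnt4, Fgf18 and start 4 of Fgf12 wide peaks cover it.

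Fold and height of the H3K4me3 peaks gave different orders. By fragments at the summit, Fgf9 led with 119 (98.6 to 142), more than the highest peak of 89.8% of genes with H3K4me3, although its fold of 5.53 exceeded that of only 5.24% of them. Fgf9, a growth factor of mesenchyme in the lung, gonad and skeleton, had 3 peaks with summits at -1423, -391 and 2278 bp from its start (downstream positive), with 85, 97 and 119 fragments and local backgrounds of 18.5, 20.8 and 20.7 fragments. At Fgf2 the local background was 3.74. The fold divides the summit by this background, so the high summits of Fgf9 go with low folds.

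Wnt5a was of the same kind. It encodes a ligand of the branches independent of beta-catenin and drives outgrowth of the limb and other axes in the embryo. Its 3 peaks had 87, 112 and 44 fragments with folds of 6.47, 7.93 and 5.98, at local backgrounds of 12.6, 13.3 and 6.53. The first lay 71 bp inside the gene's lower-coordinate end, and 1 CKO input peak overlapped it (fold 4.70, 9 fragments). Wnt11, known for cell movements in gastrulation and kidney branching, had 80 fragments at its first start (fold 6.63) and 52 at its second, which lies 3.76 kb from the 5′ end (fold 4.29). Wnt4, needed for kidney and female reproductive tract, had 1 wide peak of 1357 bp over its start with 71 fragments and a fold of 9.28. Wnt9a, a gene of joint formation, had 65 fragments in a peak of fold 7.94 that began 135 bp downstream of its start.

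Of the 46 distinct H3K4me3 peaks at members, 8 reached the median fold of the list (10) and 13 its median summit height of 53 fragments. Both were reached by 2 peaks, those of Fgf2 and Fgf5. The 28 genes had a median highest fold of 8.86, against 11.4 over the 13527 genes with H3K4me3, and a median highest summit of 28 fragments, against 70. Of the 28, 15 had 2 or more peaks (53.6%), where 2700 of the 13527 did. These are descriptions of 1 library, and genes of a family are not replicates of a condition.

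**Figure D3:**
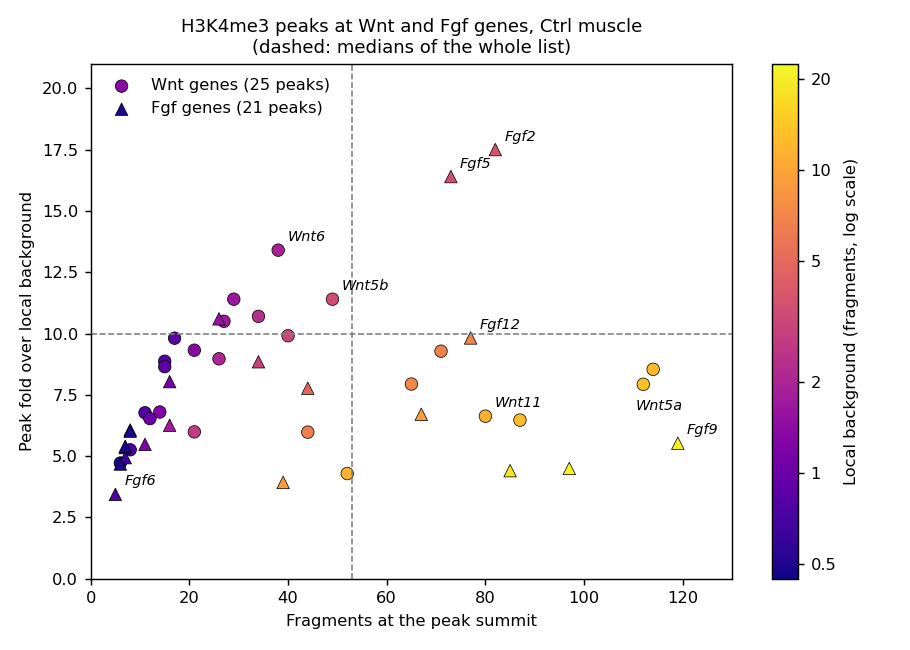
Fold over local background (y) against fragments at the summit (x) for the 46 distinct H3K4me3 peaks at Wnt (circles, 25 peaks) and Fgf genes (triangles, 21 peaks) in Ctrl muscle; colour gives local background on a log scale and dashed lines the list medians of 53 fragments and a fold of 10. Fgf2 and Fgf5 stand alone at upper right, and the peaks of Fgf9, Wnt5a and Wnt11 lie at lower right with high local background.

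Of the 46 H3K4me3 peaks, 9 also fell in the window of another protein-coding gene, and to which gene such a peak belongs was not tested. The highest summit in the Wnt5b window, 114 fragments with a fold of 8.54 at chr6:119478953-119480753, covered the start of Fbxl14, a gene inside the long Wnt5b model, and lay 11742 bp from the nearest Wnt5b start. The peak at the outer start of Wnt5b was smaller, 49 fragments with a fold of 11.4, and it also lay in the body of Gm52875. Wnt5b encodes a close paralog of Wnt5a active in cartilage. Fgf11 had 3 peaks: that of fold 8.85 covered the start of Chrnb1, a subunit of the muscle acetylcholine receptor, that of 6.71 (67 fragments) reached into Tmem102 from 329 bp off the Fgf11 start, and that of 3.93 began 513 bp from that start. The peak at Fgf17 (fold 4.68, 6 fragments) lay wholly outside the gene, in the body of Dmtn. Both peaks of Fgf1, of 7 fragments each (folds 5.35 and 4.94), lay within Arhgap26 and Gm5820 as well. The peak 54 bp before the start of Wnt3 (fold 6.77, 11 fragments) also lies in the body of Wnt9b.

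The remaining Wnt genes had summits of 6 to 27 fragments, under the list median of 53. Wnt2 (9.32), known from lung and placenta, Wnt2b (8.97), a kidney and lung inducer, and Wnt9b (8.87), a kidney inducer, had 21, 26 and 15 fragments in peaks over their starts. Wnt7a, which patterns the limb and expands satellite cells in mice, had a fold of 6.53 with 12 fragments, and Wnt7b, a lung and kidney ligand, 5.99 with 21. Wnt10a, a gene of teeth and hair, had 2 peaks inside its body, one of fold 8.65 with 15 fragments that lay 2436 bp from the nearer end and one of fold 10.5 with 27 fragments, above the list median fold of 10. Wnt16, which strengthens cortical bone, had 6 fragments at a fold of 4.72.

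Fgf6, Fgf10 and Fgf8 had peaks of few fragments. Fgf6, whose expression is largely restricted to skeletal muscle, had the lowest of the 28, a fold of 3.44 with 5 fragments (1.62 to 11.7) over its start, at a −log10 q of 1.58 where the lowest of the list was 1.32. Fgf10, the mesenchymal signal for limb and lung buds, had a fold of 8.04 with 16 fragments over its start. Fgf8, a signal of limb and brain organizers, had peaks near both ends, with folds of 5.48 and 6.26 and 11 and 16 fragments. A summit of this height is a small count, and these peaks cannot be ranked within their counting intervals.

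Promoter composition was read from the 36 listed starts of 30 members. The 22 starts with an H3K4me3 peak within 2 kb had a median of 28 CpGs in the 300 bases (range 5 to 58), and the 14 without had a median of 13 (4 to 34). Over 20084 starts of all protein-coding genes the medians were 22 with a peak and 3 without. CpG-rich Wnt and Fgf starts without H3K4me3 were Fgf4 (28 CpGs), Wnt1 (26) and starts 2 and 3 of Fgf12 (34 and 29), and those of Wnt10b and Fgf22 held 18 each. Of 13 member starts with 16 to 30 CpGs, 8 had H3K4me3 (61.5%), where 94.4% of all such starts did. Of 10 with 31 or more, 9 did (90%, against 98.0%). With 13 and 10 starts, some of them of 1 gene, these shares rest on few promoters.

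**Figure D4:**
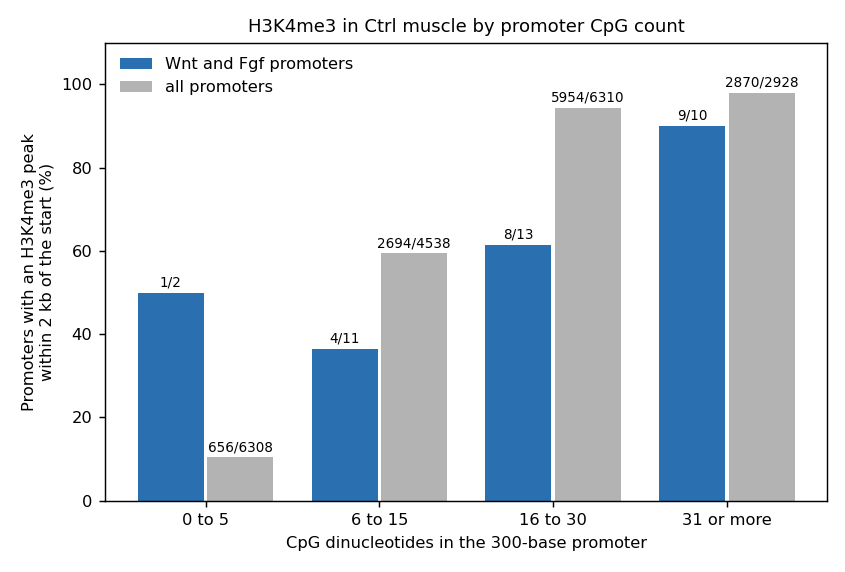
Percent of promoters with an H3K4me3 peak within 2 kb of the start in Ctrl muscle (y) by the number of CpG dinucleotides in the 300-base promoter (x), for Wnt and Fgf promoters (blue) and all promoters of protein-coding genes (grey); numbers give promoters with a peak over promoters in the class. Among promoters of 16 to 30 CpGs the blue bar stands at 61.5% and the grey at 94.4%.

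4 motifs were searched on both strands of these 300 bases. GGGCGG, the core of the GC box, was in 26 of 36 member starts (72.2%, against 47.0% of all starts). These included all of those printed above except start 4 of Fgf12. Member starts held a median of 23.5 CpGs, against 14 over all starts, and the motif shares were not adjusted for this. Among starts with an H3K4me3 peak, GGGCGG was in 81.8% of member starts and 68.1% of all starts. CCAAT was in 11 (30.6%, against 38.1%) and TATAAA in 3 (8.33%, against 12.7%), Fgf5 being one of these. CANNTG, the E-box bound by myogenic regulators, was in 27 (75.0%, against 68.7%). A short motif occurs often in any sequence, and its presence does not show that a factor binds.

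H3K9me2 at the members was nearly a matter of 2 long genes. Of 12 CKO peaks at members 10 lay in Fgf12 and Fgf14, and so did each of the 4 Ctrl peaks. All 16 lay wholly in a gene body. Fgf12 (595 kb) and Fgf14 (703 kb) encode intracellular FGF homologous factors, which modulate sodium channels of neurons and heart. Of all 337 protein-coding genes over 400 kb, 82.2% had an input-free H3K9me2 peak in CKO and 47.2% in Ctrl, so peaks in genes of this length are common. Of Fgf12 and Fgf14, 2 of 2 had one in CKO and 1 of 2, Fgf14, in Ctrl.

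Fgf14 had 6 H3K9me2 peaks in CKO and 3 in Ctrl. The CKO peaks, given by distance from the gene's 5′ end, lay at 2.36 kb (fold 4.73, 7 fragments), 186 kb (7.63, 16), 252 kb (4.44, 7), 349 kb (4.56, 7), 561 kb (9.19, 16) and 654 kb (11.4, 21). The Ctrl peaks lay at 2.02 kb (fold 4.80, 6 fragments), 22.9 kb (5.27, 9) and 344 kb (4.12, 5). The CKO folds went higher than the Ctrl folds, and the lower 3 CKO peaks were within the range of the Ctrl peaks. The highest CKO peak, at chr14:124023689-124024152, had 21 fragments (13.0 to 32.1) and no peak of another list over it. The peaks at 2.36 kb in CKO and 2.02 kb in Ctrl overlapped, the only pair in Fgf14 to do so, and the other Ctrl peaks had no CKO counterpart.

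Fgf14 also carried 3 CKO input peaks, with folds of 4.18, 4.36 and 5.11 on 5 or 6 fragments, and none in the Ctrl inputs. The input peak of 5.11 lay inside the H3K9me2 peak at 186 kb, which leaves 5 input-free H3K9me2 peaks in CKO against 3 in Ctrl. That of 4.36 covered the listed start of Fgf14, 485 kb from the 5′ end, whose promoter is printed above. No H3K4me3 peak lay in the whole gene.

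Fgf12 had 4 H3K9me2 peaks in CKO and 1 in Ctrl. In CKO they lay at 109 kb (fold 4.14, 6 fragments), 307 kb (4.56, 8), 562 kb (9.99, 20) and 577 kb (7.03, 14), and in Ctrl at 562 kb (5.67, 8). The Ctrl peak and the CKO peak at 562 kb overlapped, at chr16:28191204-28191585 and chr16:28191229-28191657. A CKO input peak lay there as well (fold 5.84, 7 fragments), so by the rule on input peaks this site counts in neither genotype. Without it, Fgf12 kept 3 peaks in CKO and none in Ctrl.

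At this shared site the fragments divided by each library's lowest background were 36.8 in CKO H3K9me2 (22.4 to 56.8 from the counting interval), 20.5 in Ctrl H3K9me2 (8.82 to 40.4) and 18.9 in the CKO input (7.57 to 38.8). The 3 intervals overlap, and a difference between these libraries was not tested. At the shared site of Fgf14 the values were 12.9 in CKO (5.17 to 26.5) and 15.3 in Ctrl (5.63 to 33.5). Here too the intervals overlap. The intervals cover counting error within these libraries alone, and both CKO lists, H3K9me2 and input, held more peaks than their Ctrl counterparts.

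**Figure D5:**
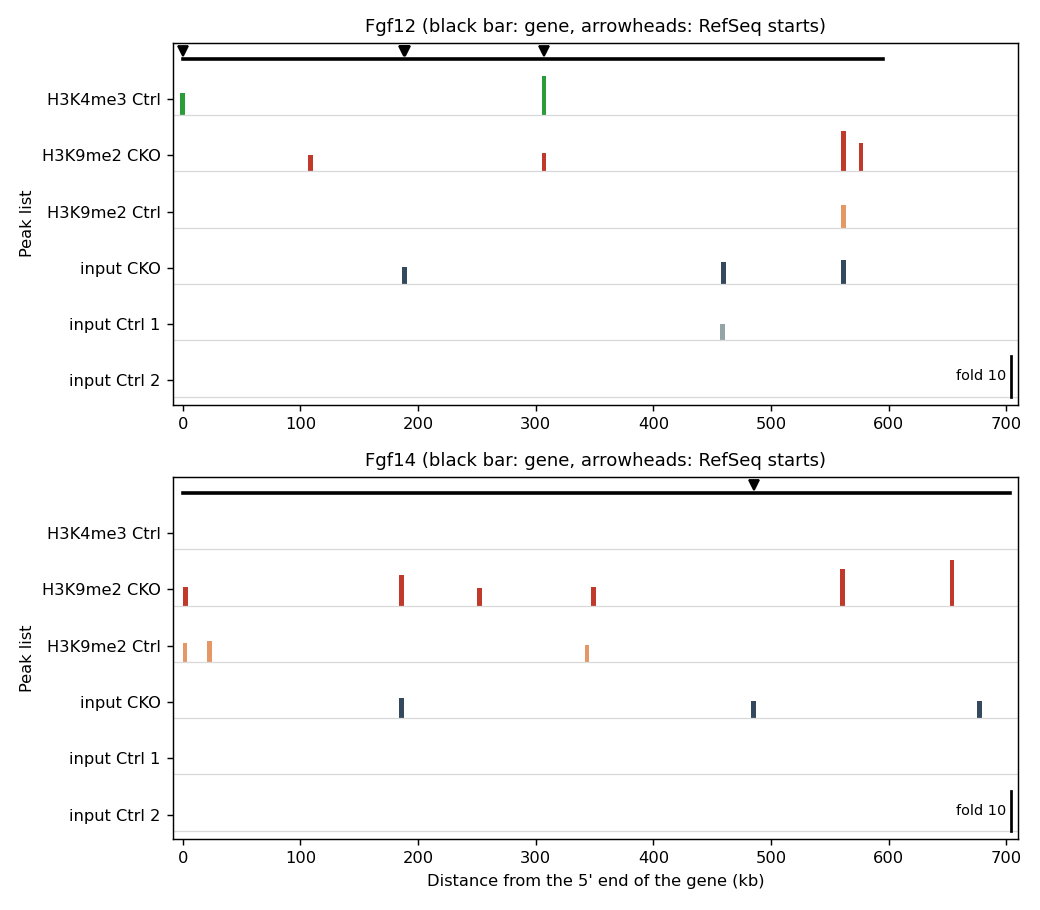
Peaks along Fgf12 (top) and Fgf14 (bottom) by distance from the gene's 5′ end in kb, 1 row per list; bar height is the peak fold (scale bar, fold 10), and bars are drawn 4 kb wide for visibility. In Fgf12 an H3K4me3 and a CKO H3K9me2 bar coincide at 307 kb and both H3K9me2 lists and the CKO input at 562 kb; in Fgf14 the H3K4me3 row is empty.

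The CKO peak at 307 kb of Fgf12 lay inside an H3K4me3 peak mapped in Ctrl. The H3K4me3 peak, at chr16:28445177-28446968, was 1792 bp wide with a fold of 9.82 and 77 fragments (60.8 to 96.2), and it covered start 4, the innermost of the 4 listed. The CKO H3K9me2 peak, at chr16:28446017-28446528, rested on 8 fragments (3.45 to 15.8) and covered the same start. Ctrl H3K9me2 and the 3 inputs had no peak there. Start 1, at the 5′ end, had an H3K4me3 peak of fold 5.40 with 7 fragments. Starts 2 and 3, which lie 188 and 189 kb in and hold more CpGs, had none, but a CKO input peak of 5 fragments (fold 4.10) covered start 2. Of the 12 CKO H3K9me2 peaks at Wnt and Fgf genes, the peak at 307 kb was the 1 that overlapped H3K4me3, where 14.2% of all CKO H3K9me2 peaks did.

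2 shorter genes had an H3K9me2 peak in CKO and none in Ctrl. In Wnt2 (47.3 kb) it lay at chr6:17991608-17991954, 38.6 kb downstream of the start, with a fold of 7.29 and 15 fragments (8.40 to 24.7). In Fgf10 (77.9 kb) it lay at chr13:118727580-118727928, 13.0 kb downstream of the start, with a fold of 5.06 and 7 fragments (2.81 to 14.4). Neither site had a peak in H3K4me3 or an input, and both genes had H3K4me3 over their starts in Ctrl. Both genes fall in the class of 20 to 100 kb, where 2 of 18 members (11.1%) and 9.69% of all genes had an input-free CKO peak. In Ctrl 0 of 18 members and 2.64% of all genes of that length had one.

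Densities allow for length. Per Mb of window, input-free H3K9me2 peaks numbered 6.12 in CKO (exact 95% Poisson interval 2.64 to 12.1, 8 peaks) and 2.30 in Ctrl (0.473 to 6.71, 3 peaks) in Fgf12 and Fgf14 together, where genes over 400 kb had 4.46 and 1.13. The other 37 members had 1.70 in CKO (0.206 to 6.15, 2 peaks) and no peak in Ctrl (up to 3.14). All protein-coding genes, those over 400 kb included, had 2.89 and 0.737. Each of these intervals holds the value of its comparison. The nearest input-free CKO peak lay at a median of 423 kb from Wnt genes and 188 kb from Fgf genes, against 152 kb over all genes, and the nearest Ctrl peak at 849 and 922 kb, against 560 kb. It was farthest at Wnt4 in CKO (1924 kb) and at Wnt11 in Ctrl (3879 kb).

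The input lists were counted at these genes in the same way. A CKO input peak lay at 17 of 39 members (43.6%, against 34.8% of all genes), at 10 Wnt and 7 Fgf genes. A peak of either Ctrl input lay at 4 of 39 (10.3%, against 13.3%): Wnt5b, Fgf5, Fgf12 and Fgf17. Each of these came from Ctrl input 1 (4 of 39, against 10.1%), and without that library the count was 0, since Ctrl input 2 had no peak at any of the 39 (against 4.56%). Of the 22 CKO input peaks, 10 overlapped an H3K4me3 peak, where 50.7% of all CKO input peaks did. Conversely, 10 of 46 H3K4me3 peaks at members overlapped a CKO input peak, where 33.5% of all H3K4me3 peaks did.

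Of 11 CKO input peaks at Wnt genes 7 overlapped H3K4me3, and of 11 at Fgf genes 3 did, against 50.7% over the whole list, with no test between the families. The Wnt5a peak among them is described above. Wnt2b had a fold of 5.21 on 11 fragments, Wnt4 4.81 on 10, Wnt6 4.74 on 11, Wnt7a 4.29 on 8, Wnt7b 3.78 on 10 and Wnt5b 5.71 on 9, each overlapping its H3K4me3 peak. Wnt5b had a further one of 4.02 far downstream, and Wnt3 (5.01) and Wnt3a (3.40) had theirs away from H3K4me3. Wnt8a had one of 5.55 with 8 fragments and no H3K4me3. Fgf3 and Fgf4, neighbours on chromosome 7 that act in the early embryo, had CKO input peaks within 2 kb of their starts with folds of 5.43 and 5.03 on 10 fragments each and no H3K4me3 or H3K9me2 peak. Of the other Fgf genes, Fgf11 (5.05), Fgf17 (5.27) and Fgf18 (5.57) had CKO input peaks that overlapped H3K4me3. The further input peaks of Fgf12 were of 5.47 in CKO and 4.02 in Ctrl input 1, which did not overlap, and the other Ctrl input 1 peaks were those of Fgf17 (3.66), Wnt5b (5.05) and Fgf5 (4.17).

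The receptors, regulators and transducers of both pathways were counted in the same way. H3K4me3 lay at 19 of 19 Wnt receptors and coreceptors, with Ror1 (14.8), Ptk7 (13.2) and Fzd6 (12.7) highest, and at 20 of 20 Wnt transducers, with Dvl3 (13.0), Apc (12.3) and Tcf7l2 (12.1) highest, against 16 of 19 Wnt ligands. Of genes of Wnt secretion, agonists and extracellular inhibitors 11 of 16 had it, led by Wif1 (14.1), Rspo3 (13.6) and Sfrp1 (13.3). The exceptions were Dkk1, Dkk4, Sfrp4, Sfrp5 and Rspo4. Of Fgf receptors, coreceptors and binding proteins 13 of 15 had it, led by Fgfbp3 (16.1), Sdc2 (11.5) and Sdc1 (10.4), and the exceptions were Klb, the coreceptor for Fgf15 and Fgf21, and Fgfbp1. All 16 Fgf transducers and feedback genes had it, with Grb2 (13.0) and Spry4 (12.3) among the highest folds. The share over all genes was 65.5%, and no test was made between these lists.

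An input-free H3K9me2 peak lay at 6 of the 86 genes of these 5 lists in CKO (6.98%, against 9.82% of all genes) and at 3 of 86 in Ctrl (3.49%, against 3.25%), shares near those of all genes. In CKO it lay at Dvl3 (fold 5.52), Gsk3a (5.11) and Gsk3b (5.08) among Wnt transducers, at Dkk1 (5.63) and Sfrp1 (4.83) among secreted Wnt inhibitors and at Etv5 (5.13), a target of FGF signalling. In Ctrl it lay at Lgr5 (4.50), Rspo3 (6.24) and Axin2 (4.16), the last a target and inhibitor of Wnt signalling. No gene of these 5 lists had an input-free peak in both genotypes, and of the 39 Wnt and Fgf genes Fgf14 alone did, where 1.82% of all genes did, so nothing is read from these counts.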

How the data were processed

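The 6 CUT&RUN libraries enter as peak lists. The submitters' processing notes name Bowtie2, MACS2 and the mm10 build. Their versions, any control used in peak calling and the making of the inputs were not given in the sources used here, and no pooling of libraries is named. For each peak the authors deposited the fold, both −log10 of p and −log10 of q, a summit offset and a score. The fold was read as the ratio of summit to local background with 1 added to each. The score is 10 times −log10 q to within 1.

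Overlap meant 1 bp or more. Genes were those of RefSeq GRCm38.p6, which lists starts and strands for 30 of 39 members. Fragments at the summit were solved from the deposited fold and −log10 p-value and matched both within 0.1% for at least 99.0% of peaks in every list. Peak placement and fragment recovery were tested on simulated data. The simulated folds and p-values came from the same formulas, so recovery checked the code and not whether the deposited values follow them. Simulated backgrounds were lower than those at Fgf9 and Wnt5a. Exact 95% Poisson intervals cover counting error only. No test was made, as each mark has 1 library per genotype. The members, the lists and the naming rule (every member with a peak, and the 3 highest genes per pathway list and mark) were chosen with earlier results of these data known, 1 gene that the naming rule picks is not reported here, and the class of genes over 400 kb was added after the peaks of Fgf12 and Fgf14 were seen. Exons, introns and UTRs were not analysed here. Alternatives were other windows, thresholds, rules for input peaks, a shortened CKO list and leaving out either Ctrl input. Scripts ran in Python 3.11.15 with scipy 1.17.1, pandas 2.3.3 and numpy 2.4.6, and figures were drawn in matplotlib 3.10.9.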

Additional observations from a re-analysis of the deposited data

How the results depend on the processing

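The 4 members with an input-free H3K9me2 peak in CKO stayed at 3 or 4 under each alternative tried. Fgf10 was the one lost with q of 1e-05 or less, where the share of all genes was 3.76%, against 9.82%. It was also lost with folds at or above the list median (4.93% of all genes). The same held with the CKO list shortened to the length of the Ctrl list (2.88% of all genes). In Ctrl the count of 1 (Fgf14) became 0 with q of 1e-05 or less. It became 2 (Fgf12 added) both with no removal of input peaks and with removal by Ctrl inputs only. The shares of all genes were 0.203%, 5.38% and 4.43% in that order, against 3.25%. The Ctrl count stayed 1 when either Ctrl input was left out. Members with an H3K4me3 peak fell from 28 to 8 with folds at or above the list median, a threshold that by construction keeps fewer peaks. The share of all genes with an H3K4me3 peak fell from 65.5% to 41.5%. Members with one at the start numbered 4 under that threshold and 13 when the peak had to cover the start base, against 26. The shares of all genes were 38.2% and 52.6%, against 61.6%. Members with a CKO input peak were 8 with folds at or above the list median and 0 with q of 1e-05 or less, against 17. The shares of all genes were 19.4% and 6.7%, against 34.8%. Members with a Ctrl input peak were 1 and 0, against 4, and 0 without Ctrl input 1 (range 0 to 4 over leaving out either input). The shares of all genes were 7.02% and 1.15%, against 13.3%, and 4.56% without Ctrl input 1. The windows and the placement by peak centre kept each count within 1.5 times. No paired analysis was possible because each comparison has 1 library per genotype. Depth limits the H3K9me2 results: a missing peak at these counts does not show that the mark is absent.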
